A study of Arabidopsis thaliana with 12 samples.

Results

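The 8 genes described here are ACC synthase genes of Arabidopsis thaliana: ACS2 (AT1G01480), ACS4 (AT2G22810), ACS5 (AT5G65800), ACS6 (AT4G11280), ACS7 (AT4G26200), ACS8 (AT4G37770), ACS9 (AT3G49700) and ACS11 (AT4G08040). They were chosen by name, and all 8 are among the 26702 genes that the deposited table lists. The table holds polyadenylated RNA from samples labelled as seedling shoots at 3 days post germination (DPG), in 4 groups of 3 biological replicates. Every library, controls included, carries the genotype clv3 epfl1 epfl2 epfl4 epfl6, so no wild type stands beside these values. The mock group received buffer only, and the EPFL6 group received the EPFL6 peptide, as 8.7 µl of a 10 µM solution in 1 ml of liquid medium, which computes to 86.2 nM. The CHX group had 10 µM cycloheximide for 10 minutes before the buffer, and the CHX plus EPFL6 group had the same pretreatment before the peptide. Each replicate pooled 10 seedlings, and the labels do not give the time from peptide to collection.

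Ethylene is made from S-adenosylmethionine (SAM), which ACC synthases turn into 1-aminocyclopropane-1-carboxylic acid (ACC) and ACC oxidases turn on into ethylene. The ACC synthase step usually limits the rate, and plants control it through transcription of the ACS genes and through the stability of the proteins. ACS2 and ACS6 end in a long tail that the MAP kinases MPK3 and MPK6 phosphorylate, which stabilises the enzymes. ACS4, ACS5, ACS8 and ACS9 end in a tail through which the ETO1 family of ubiquitin ligase adaptors marks them for breakdown, and ACS7 has a short tail without either kind of site. Cycloheximide blocks translation, and transcripts of many early response genes are known to accumulate in its presence. EPFL6 belongs to the secreted peptides that ERECTA family receptor kinases perceive. Only transcripts were measured here, not ACC synthase protein, ACC or ethylene.

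In the RefSeq TAIR10.1 annotation, 4 of the 8 genes lie on chromosome 4: ACS11 at chr4:4886962-4889224, ACS6 at chr4:6863979-6866116, ACS7 at chr4:13275200-13277188 and ACS8 at chr4:17752079-17754157, all on the plus strand. ACS2 lies at chr1:175706-178406 on the plus strand. ACS4 at chr2:9717602-9719594, ACS9 at chr3:18434449-18436141 and ACS5 at chr5:26330746-26332812 are on the minus strand. No annotated gene overlaps any of them, and no 50-base word of any of the 8 genes occurs elsewhere in that genome. The annotated proteins run from 447 residues for ACS7, the short-tailed enzyme, through 460 for ACS11, 469 for ACS8, 470 for ACS5 and ACS9 and 474 for ACS4, to 495 for ACS6 and 496 for ACS2.

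The 300 bases before the annotated start are shown for 4 genes: ACS2 and ACS8, with the highest values with CHX relative to mock, ACS7, the only one with more than 1 copy of the W-box core, and ACS5, the one that did not pass the test with CHX. They come from RefSeq TAIR10.1, read 5′ to 3′ on the strand of the gene, and capitals mark the W-box core, TTGAC on either strand (GTCAA where it lies on the other strand), the core of the sites that WRKY factors bind. The windows are chr1:175406-175705 (plus) for ACS2, chr4:17751779-17752078 (plus) for ACS8, chr4:13274900-13275199 (plus) for ACS7 and chr5:26332813-26333112 (minus) for ACS5.
ACS2: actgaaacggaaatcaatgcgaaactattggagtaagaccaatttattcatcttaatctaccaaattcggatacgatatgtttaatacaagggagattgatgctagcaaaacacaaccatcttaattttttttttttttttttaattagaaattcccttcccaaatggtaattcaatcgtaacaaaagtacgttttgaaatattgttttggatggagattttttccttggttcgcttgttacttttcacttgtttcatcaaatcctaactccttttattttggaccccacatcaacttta
ACS8: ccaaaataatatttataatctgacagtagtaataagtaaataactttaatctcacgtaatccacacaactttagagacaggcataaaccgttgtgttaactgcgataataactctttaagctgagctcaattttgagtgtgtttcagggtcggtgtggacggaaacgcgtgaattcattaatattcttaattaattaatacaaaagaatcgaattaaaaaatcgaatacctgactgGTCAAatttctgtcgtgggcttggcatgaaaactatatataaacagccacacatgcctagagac
ACS7: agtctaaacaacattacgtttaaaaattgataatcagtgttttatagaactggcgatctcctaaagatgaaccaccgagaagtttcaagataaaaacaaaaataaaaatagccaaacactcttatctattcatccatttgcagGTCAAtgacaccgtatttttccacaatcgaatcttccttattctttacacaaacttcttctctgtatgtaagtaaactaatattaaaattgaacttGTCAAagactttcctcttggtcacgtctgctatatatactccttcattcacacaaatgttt
ACS5: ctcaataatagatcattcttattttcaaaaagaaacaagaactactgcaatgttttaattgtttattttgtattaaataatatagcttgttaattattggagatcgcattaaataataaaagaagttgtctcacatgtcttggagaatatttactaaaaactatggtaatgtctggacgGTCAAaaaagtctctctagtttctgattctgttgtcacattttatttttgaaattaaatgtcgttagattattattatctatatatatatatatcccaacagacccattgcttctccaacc
The ACS2 window holds no copy of these letters. ACS8 holds 1, at 64 bases before the start, ACS5 holds 1, at 121 bases, and ACS7 holds 2, at 157 and 61 bases. The windows of ACS4, ACS6, ACS9 and ACS11 hold 1 each. At least 1 copy is present in 50.4% of the 27443 windows of the same length before protein-coding genes, and at least 2 copies in 17.9%. The GCC box GCCGCC, which ethylene response factors bind, is in none of the 8 windows and in 2.26% of all windows, and the G-box CACGTG is in none of the 8 and in 7.09% of all. A match or its absence describes only the letters of these windows.

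The 8 genes were unevenly expressed in mock. Levels between genes are compared as normalised reads per kilobase of transcript, where a normalised read is a read divided by its library's size factor. ACS6 led with 471 ± 184 per kilobase (SD, n = 3), followed by ACS11 with 128 ± 44.8, ACS7 with 80.3 ± 19.0 and ACS2 with 78.6 ± 37.5. ACS8 followed with 18.2 ± 6.23 per kilobase, ACS5 with 11.8 ± 4.22, ACS4 with 2.35 ± 1.68 and ACS9 with 0.216 ± 0.374. The library ranges of ACS7 and ACS2 overlapped, as did those of ACS8 and ACS5, while every other neighbouring pair in this order was separate. With CHX the order was different: ACS2 came first with 43395 ± 9523 per kilobase, then ACS6 with 28775 ± 4518, ACS7 with 12434 ± 3140, ACS8 with 9728 ± 891 and ACS11 with 6655 ± 1146. ACS4 had 59.6 ± 24.4 per kilobase, ACS9 17.4 ± 6.07 and ACS5 6.75 ± 3.56, and only the ranges of ACS7 and ACS8 overlapped among neighbours. ACS5 was the lowest of the family with CHX, after sixth place in mock.

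**Figure D1:**
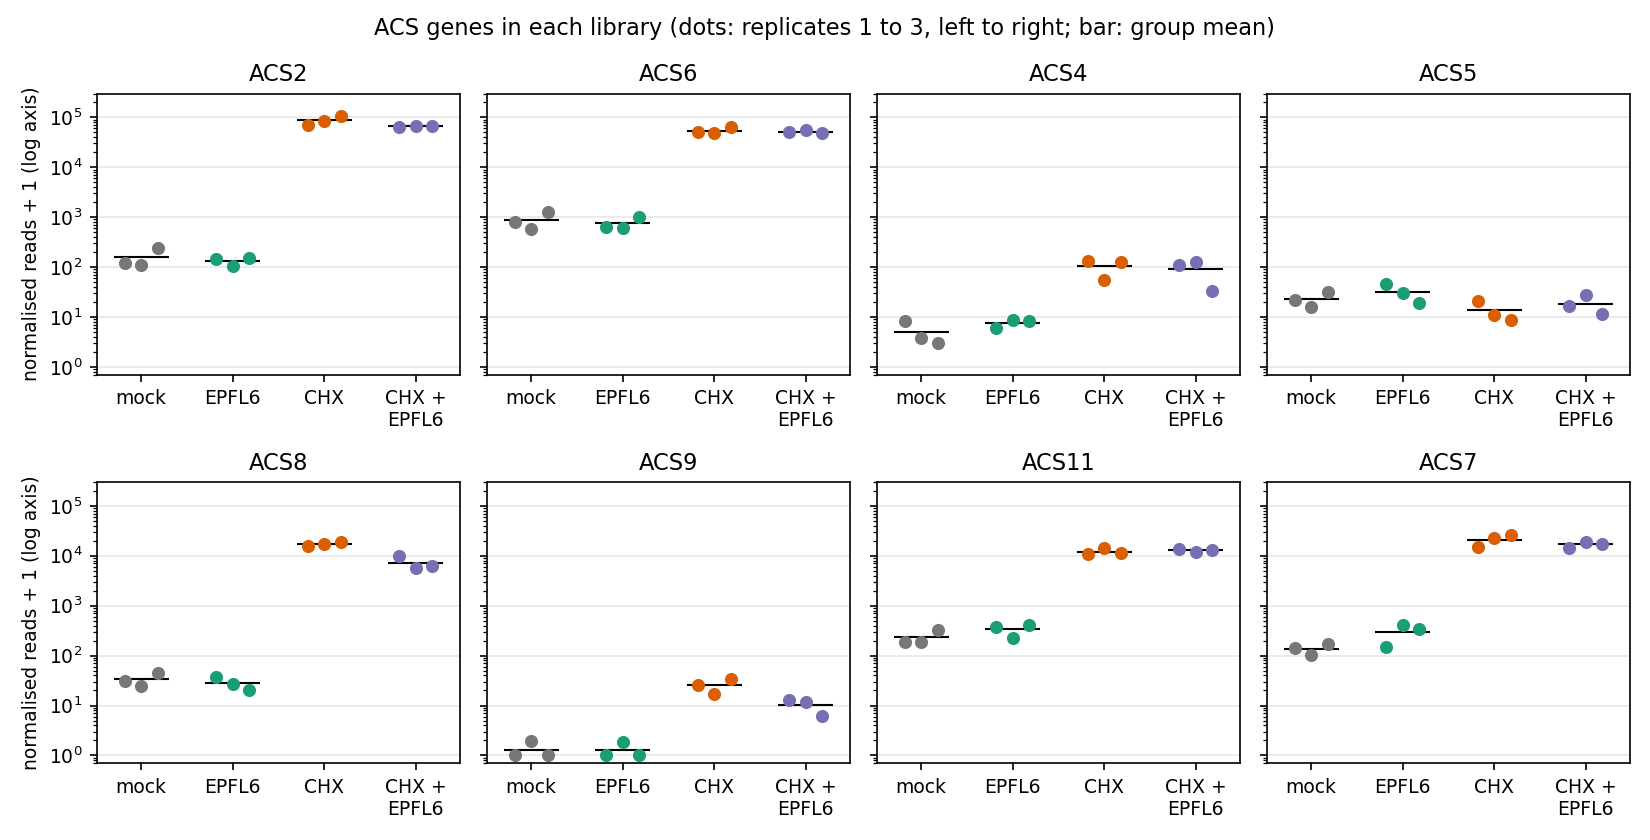
Normalised reads plus 1, on a log axis, of the 8 ACS genes in each of the 12 libraries. Dots are replicates 1 to 3 from left to right and bars are group means; with CHX, 7 genes lie above every library without it, and ACS5 does not.

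CHX against mock asks what blocking translation did to these transcripts. Of the 8 genes, 7 were higher with CHX and passed the test, and 0 were lower. The test was limma on log2(value + 1) over 23225 genes with Benjamini-Hochberg adjustment, two-sided at 0.05. CHX changed most of the transcriptome: 40.9% of all genes tested were called higher, 38.3% lower and 79.2% in either direction. The median log2 fold change of the 8 genes was 5.87, beside 0.02 over all genes tested. ACS4 and ACS9 reached the minimum value for testing only in libraries with CHX, so a count over the family is a description and no more.

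The MAP kinase substrates ACS2 and ACS6 had the highest levels per kilobase of the family with CHX. ACS2 had 122, 107 and 244 normalised reads in mock replicates 1 to 3, whereas in the CHX replicates the values were 69084, 84545 and 107001. Its lowest CHX library was far above its highest mock library, and the log2 fold change was 9.18 ± 0.27 (SE; limma adjusted p = 2e-10). That placed ACS2 at rank 32 of the 23225 genes ordered from the highest fold change. ACS6 had 805, 581 and 1256 normalised reads in mock, whereas with CHX the values were 49797, 48165 and 63554. Its groups were also separate, with a log2 fold of 5.99 ± 0.26 (limma adjusted p = 3.3e-09) and rank 615.

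Of the 4 genes whose proteins are subject to ETO1-dependent turnover, 3 passed the test as higher and ACS5 did not. Of all genes tested, 40.9% were called higher. ACS4 and ACS9 were tested only because of their values with CHX, so this count is a description and their p-values follow that selection. ACS8 rose from 29.7, 23.2 and 44.8 normalised reads in mock to 15921, 17102 and 19070 with CHX, a log2 fold of 9.06 ± 0.28 (limma adjusted p = 2.6e-10) and rank 41. ACS4 rose from 7.41, 2.78 and 2.04 to 132, 54.9 and 123 normalised reads, a log2 fold of 4.41 ± 0.55 (limma adjusted p = 2.1e-05). ACS9 had 0, 0.928 and 0 normalised reads in mock, which is 1 read over the 3 libraries, and 24.8, 16.3 and 33.7 with CHX. All 3 were separate between the groups, and per kilobase ACS4 and ACS9 stayed far below ACS8 with CHX. The fitted ACS9 value was 4.32 ± 0.45 on the log2(value + 1) scale (limma adjusted p = 4e-06), and the ratio from reads was 76.5, with a 95% counting interval of 13.4 to 3059. Such intervals cover counting error only.

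ACS5, of the same tail class, stood at 21.2, 14.8 and 30.6 normalised reads in mock and at 20.2, 10.2 and 7.58 with CHX. The groups overlapped, and the log2 fold change of −0.82 ± 0.46 did not pass the test (limma adjusted p = 0.12, 95% interval −1.82 to 0.19). It rests on 9 to 30 reads per library. Without CHX replicate 1 it was −1.19 and passed (adjusted p = 0.039).

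ACS7, the short-tailed enzyme, rose from 140, 102 and 166 normalised reads in mock to 15249, 22220 and 25686 with CHX. The log2 fold change was 7.26 ± 0.34 (limma adjusted p = 5.7e-09), at rank 323. ACS11, another ACC synthase, rose from 187, 183 and 326 normalised reads to 10610, 14480 and 11205. The log2 fold change was 5.74 ± 0.26 (limma adjusted p = 4e-09), at rank 690. The libraries of both genes were separate between mock and CHX, and all 7 genes called were without overlap, where 41.5% of all genes tested were higher and 38.8% lower without overlap.

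These CHX changes are relative to the median gene. Scaled by library size alone, the median of all genes moved to −0.74 and the share of called genes that were lower went from 48.4% to 72.5%. All 7 genes remained higher on that scale, with ACS2 at 8.43, and ACS5 then passed as lower at −1.51 (limma adjusted p = 0.0095). In bulk RNA, fewer cells of a type and less RNA per cell cannot be told apart. The summed level of 8 root markers ranged from 7109 to 9230 normalised reads in mock and from 2169 to 2579 with CHX, and none was at 0, although the samples are labelled as shoots. The sum of 5 shoot markers ranged from 351806 to 660111 in mock and from 215923 to 316805 with CHX, again with none at 0. Of the 8 root markers, 6 were called lower and 2 higher with CHX, and of the 5 shoot markers 3 lower and 1 higher. These counts stand beside 38.3% of all genes tested called lower and 40.9% called higher. On library size alone, 6 root markers were lower and 0 higher. The part of the markers in the ACS results was not tested. CHX libraries were also deeper, at 93.9 ± 11.2 M reads against 51.4 ± 4.74 M in mock (SD, n = 3). The 12 libraries ranged from 40.2 to 106.6 M reads.

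The same comparison in the presence of the peptide, CHX plus EPFL6 against EPFL6, shares no library with the previous comparison. Both come from 1 fit of all 12 libraries, however, and share its estimate of the spread, so their p-values are not independent. Again 7 of the 8 genes passed as higher and 0 as lower. Of all genes tested, 40.2% were higher, 37.7% lower and 77.9% called in either direction. Because ACS4 and ACS9 reached the minimum value for testing only with CHX, this count too is a description and no more. ACS2 stood at 144, 103 and 150 normalised reads with EPFL6 and at 65016, 67713 and 68458 with both agents, a log2 fold of 8.99 ± 0.27 (limma adjusted p = 2.3e-10). ACS8 stood at 36.9, 26 and 19.6 with EPFL6 and at 9972, 5760 and 6103 with both, a log2 fold of 8.0 ± 0.28 (limma adjusted p = 7e-10). The log2 fold changes of the others called were 6.14 for ACS6, 5.92 for ACS7, 5.29 for ACS11, 3.35 for ACS4 and 2.98 for ACS9. The 7 were separate between the groups, as were 41.8% of all genes tested in the higher and 38.8% in the lower direction. ACS9 had 1 read over the EPFL6 libraries, and its ratio from reads was 26.6, with a counting interval of 4.39 to 1089. ACS5 stood at 44.5, 28.6 and 18.5 normalised reads with EPFL6 and at 15.4, 26.2 and 10.4 with both agents. Its groups overlapped, and its log2 fold change was −0.79 ± 0.46 (limma adjusted p = 0.13). On library size alone, the share of called genes that were lower went from 48.4% to 73.4%, and ACS5 passed at −1.49.

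**Figure D2:**
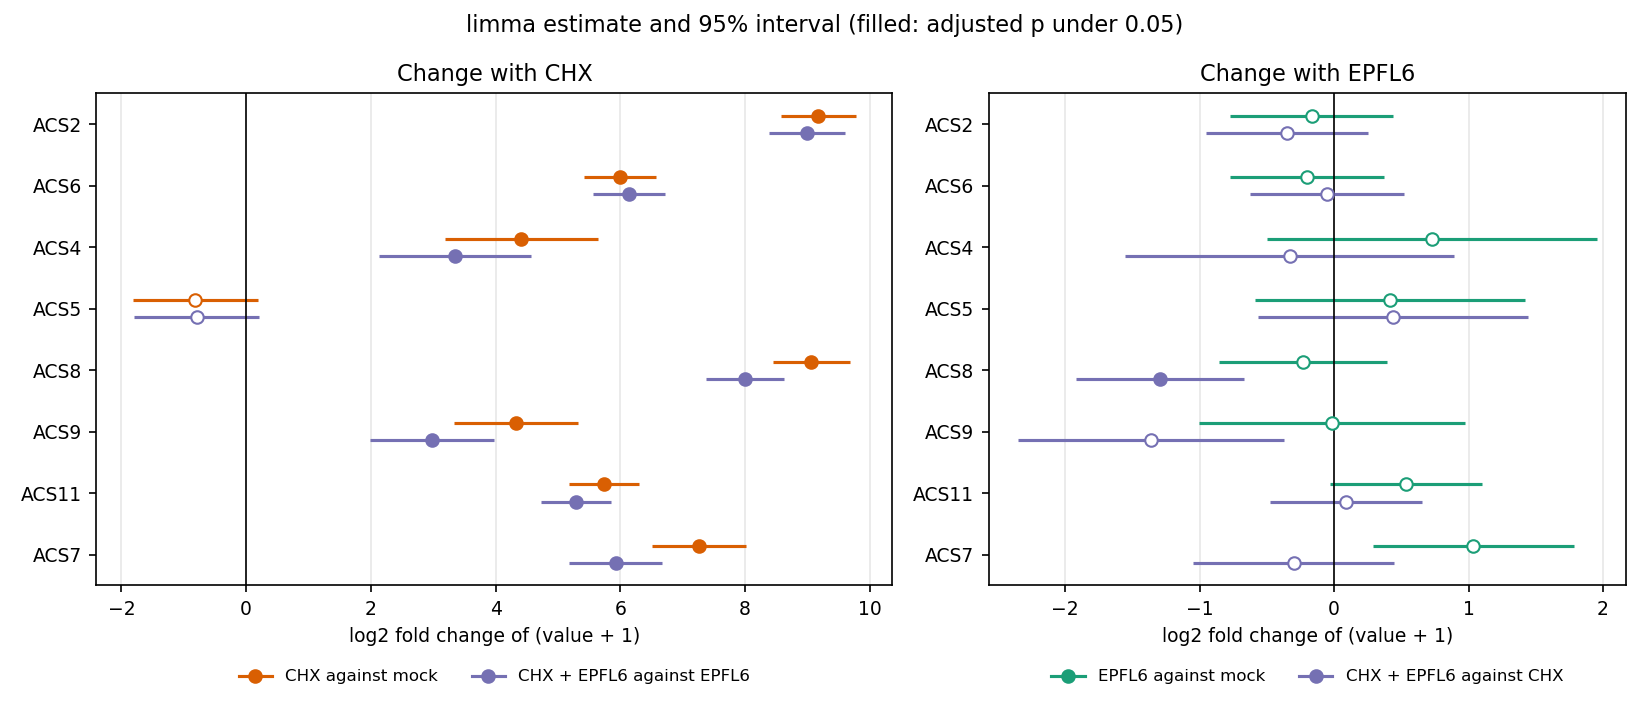
Log2 fold changes of the 8 ACS genes from limma on log2(value + 1), with 95% intervals; filled dots have an adjusted p under 0.05. On the left, 7 genes are filled in both CHX comparisons and ACS5 in neither; on the right, only ACS8 in CHX plus EPFL6 against CHX is filled, at −1.30.

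The family as a whole came to 709, 548 and 1113 normalised reads per kilobase in mock replicates 1 to 3 and to 755, 765 and 1070 with EPFL6. With CHX it came to 84990, 98692 and 119533, and with CHX plus EPFL6 to 80949, 84150 and 81393. As a share of all reads, the 8 genes took 28.7 ± 11.1 reads per M reads in mock, 30.8 ± 6.37 with EPFL6, 2206 ± 290 with CHX and 1824 ± 29.6 with both (SD, n = 3). The make-up of this pool also differed. ACS6 held 59.2% ± 2.21 of the family total in mock and 28.6% ± 2.62 with CHX, while ACS2 held 9.75% ± 1.18 and 42.7% ± 2.06. ACS8 went from 2.32% ± 0.060 to 9.71% ± 0.778, and ACS11 from 16.3% ± 1.92 to 6.70% ± 1.46. ACS7 held 10.5% ± 1.48 in mock and 12.2% ± 1.42 with CHX, with overlapping libraries. Each of these shares depends on the other genes of the pool, and no test was made of the shares with CHX against mock.

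**Figure D3:**
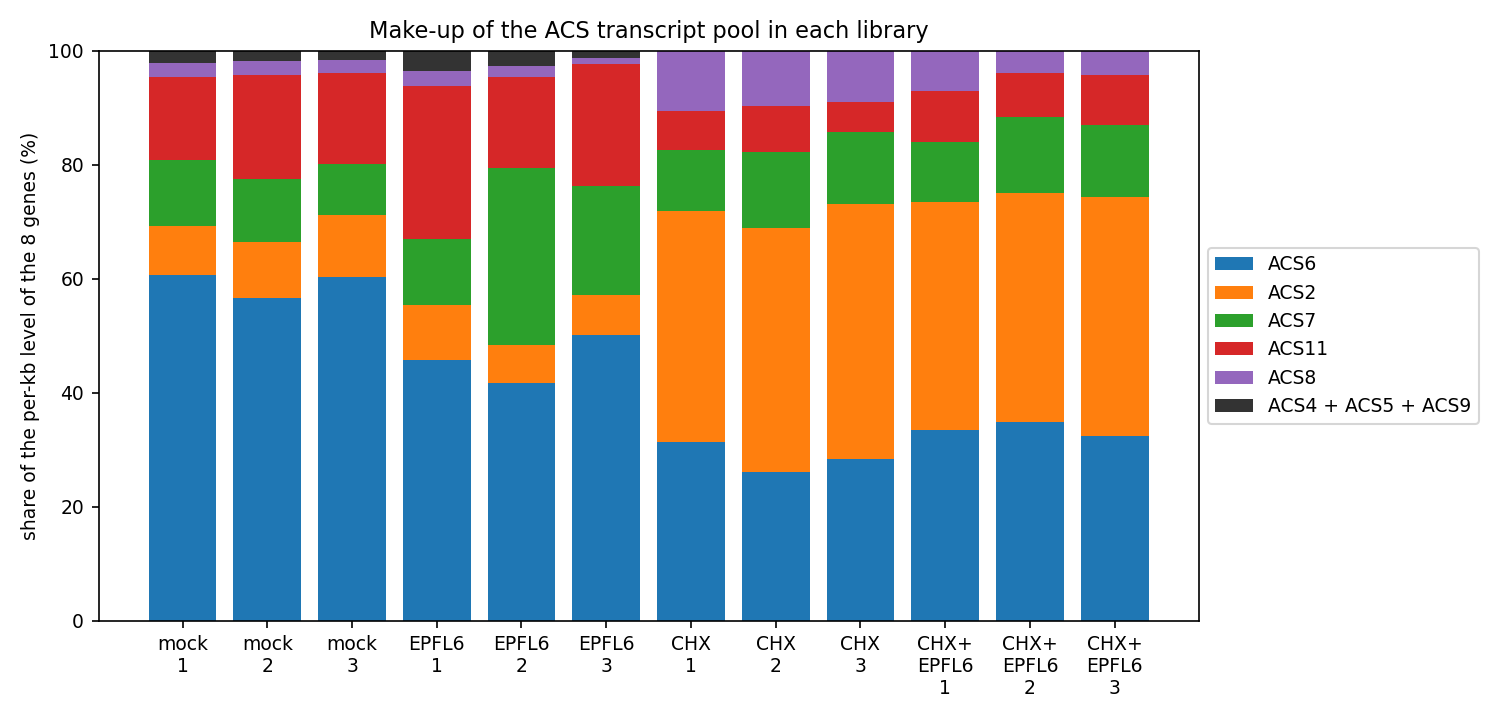
Share of each ACS gene in the summed normalised reads per kilobase of the 8 genes, in percent, 1 bar per library. ACS6 is the largest share in the 6 libraries without CHX, and ACS2 is the largest in the 6 libraries with it.

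EPFL6 against mock asks what the peptide did while translation was running. None of the 8 genes passed the test (limma, 0 of 8), where 0.0172% of all genes tested did. The median log2 fold change of the 8 was 0.20, beside 0.0023 over all genes tested. At an unadjusted p under 0.05 there was 1 of the 8, ACS7, beside 708 of the 23225 genes (3.05%), and edgeR and DESeq2 on the recovered reads also called 0. ACS7 stood at 149, 401 and 346 normalised reads with EPFL6. Replicates 2 and 3 lay above all mock libraries, whose highest was 166, and replicate 1 lay within their range. The log2 fold change was 1.04 ± 0.34, with a 95% interval of 0.29 to 1.78, an unadjusted p of 0.0113 and a limma adjusted p of 1.

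ACS11 stood at 367, 223 and 417 normalised reads with EPFL6, with a log2 fold change of 0.54 (95% interval −0.03 to 1.1) and overlap with mock. ACS6 stood at 647, 596 and 1003, with a log2 fold change of −0.20 (−0.78 to 0.37). For ACS2 the value was −0.17 (−0.77 to 0.44) and for ACS8 −0.23 (−0.85 to 0.39). The intervals of ACS2, ACS6 and ACS8 end below the ACS7 estimate of 1.04, and that of ACS11 does not. The ACS7 interval of 0.29 to 1.78 overlaps each of these intervals, and differences between genes were not tested. The groups overlapped for all 8 genes, where 3.68% of all genes tested were higher and 3.1% lower without overlap. The least abundant genes were the least well measured. ACS4 stood at 5.09, 7.81 and 7.21 normalised reads with EPFL6, with a log2 fold change of 0.73 (−0.50 to 1.95). For ACS5 the value was 0.42 (−0.59 to 1.42). ACS9 had 0, 0.868 and 0 normalised reads, which is 1 read in each of the groups compared, so a difference was not detectable at this depth.

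Mock replicate 3 was the highest mock library for 6 of the 8 genes. Without it, the log2 fold changes with EPFL6 were 0.20 for ACS2, 0.09 for ACS6 and 0.02 for ACS8, opposite in sign to the values above, and 0 of 8 were called. The part of that library in the EPFL6 values beyond this was not tested. WRKY33, a transcription factor that acts on ACS2 and ACS6, was also highest there, at 4643 normalised reads against 3216 and 2142 in the other mock libraries. The count of 6 was not made over all genes, and the part of WRKY33 in the ACS values was not tested.

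CHX plus EPFL6 against CHX asks what the peptide did while translation was blocked. Of the 8 genes, 1 passed the test, ACS8, and it was lower, where 7.63% of all genes tested were lower, 5.89% higher and 13.5% called in either direction. The median log2 fold change of the 8 was −0.32, beside 0.0038 over all genes tested. ACS8 stood at 15921, 17102 and 19070 normalised reads with CHX and at 9972, 5760 and 6103 with CHX plus EPFL6. Every library with both agents was below every library with CHX alone, and replicate 1 was the highest of the 3 with both. The means were 17365 and 7278, a ratio of 0.419, and the log2 fold change was −1.30 ± 0.28 (95% interval −1.92 to −0.67, limma adjusted p = 0.016). The call was lost without CHX replicate 3 (−1.23, adjusted p = 0.067), without CHX plus EPFL6 replicate 2 (−1.15, adjusted p = 0.062) and without CHX plus EPFL6 replicate 3 (−1.19, adjusted p = 0.062). Over 21 alternatives the value ranged from −1.55 to −1.15 and the call held in 18. The summed root markers ranged from 1884 to 2242 normalised reads with both agents, against 2169 to 2579 with CHX, and 1 of 8 was called, as lower. The summed shoot markers ranged from 232995 to 382560 with both agents, against 215923 to 316805 with CHX, and 3 of 5 were called, all lower, beside 13.5% of all genes tested called. The shoot markers called were STM, CLV3 and AS1, with log2 fold changes of −2.38, −2.46 and −0.50. Of these, CLV3 was also called lower with EPFL6 alone (−1.13, limma adjusted p = 0.0086). The shoot markers not called, RBCS1A and LHCB1.1, had log2 fold changes of 0.22 and 0.34. The part of the root and shoot markers in the ACS8 result was not tested.

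ACS9 stood at 24.8, 16.3 and 33.7 normalised reads with CHX and at 11.8, 10.5 and 5.20 with both agents, also without overlap. Its log2 fold change of −1.36 ± 0.45 missed the threshold (limma adjusted p = 0.069) and passed in edgeR (−1.46, adjusted p = 0.039). ACS2 stood at 69084, 84545 and 107001 with CHX and at 65016, 67713 and 68458 with both. Its libraries were separate by a narrow margin, and the log2 fold change was −0.35 ± 0.27 (95% interval −0.96 to 0.26, limma adjusted p = 0.41). ACS2, ACS8 and ACS9 were thus lower without overlap, as were 17.7% of all genes tested, with 18% higher without overlap.

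The other 5 genes overlapped between CHX and CHX plus EPFL6. ACS6 stood at 50627, 54900 and 49223 normalised reads with both agents, with a log2 fold change of −0.05 (95% interval −0.63 to 0.52). ACS11 stood at 13353, 11869 and 13049, with a value of 0.09 (−0.48 to 0.65). For these abundant genes the intervals exclude a change as large as the ACS8 estimate of −1.30. ACS7 stood at 14225, 18853 and 17379, with a log2 fold change of −0.30 (−1.05 to 0.45). ACS4 stood at 111, 124 and 32.2, with replicate 3 far below the others and a value of −0.33 (−1.56 to 0.89). Without that library the ACS4 value was 0.28, also not called. ACS5 had 0.44 (−0.57 to 1.44). ACS8 thus held 9.71% of the family total with CHX and 4.98% ± 1.68 with both agents, while ACS6 held 28.6% and 33.5% ± 1.28. Among 16 exact permutation tests of such shares for the peptide, chosen after the values were seen, the smallest p possible with 3 against 3 was 0.1, and every adjusted p was 0.4 or more.

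The interaction asks whether the EPFL6 change differed with and without CHX. For 0 of the 8 genes did it pass in limma, where 1.5% of all genes tested did (1.14% lower, 0.366% higher). Of the 8, 2 had an unadjusted p under 0.05, a share near the 19.2% of all genes tested. In edgeR 0 of the 8 were called and in DESeq2 1, with 1528 genes called in all by DESeq2. ACS7 had an interaction of −1.34 ± 0.48 on the log2 scale (limma adjusted p = 0.17), with EPFL6 changes of 1.04 without CHX and −0.30 with it. DESeq2 called it at −1.47 (adjusted p = 0.028), and limma without EPFL6 replicate 1 at −1.78 (adjusted p = 0.045). ACS8 had −1.07 ± 0.40 (limma adjusted p = 0.18), so its lower level with the peptide under CHX was not shown to differ from its change without CHX. The others were −1.35 for ACS9, −1.06 for ACS4, −0.45 for ACS11, −0.18 for ACS2, 0.02 for ACS5 and 0.15 for ACS6.

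The order of levels per kilobase with EPFL6 was ACS6 (400 ± 119), ACS11 (185 ± 55.5), ACS7 (176 ± 78.3), ACS2 (66.1 ± 12.7), ACS5 (16.3 ± 6.97), ACS8 (15.4 ± 4.90), ACS4 (3.86 ± 0.825) and ACS9 (0.202 ± 0.349). ACS11 and ACS7 overlapped, as did ACS5 and ACS8. With CHX plus EPFL6 it was ACS2 (33498 ± 905), ACS6 (27570 ± 1580), ACS7 (9935 ± 1396), ACS11 (7017 ± 431), ACS8 (4077 ± 1311), ACS4 (51.3 ± 28.6), ACS5 (9.23 ± 4.31) and ACS9 (6.39 ± 2.44). There, only ACS5 and ACS9 overlapped among neighbours. ACS8 stood above ACS11 with CHX and below it with both agents, in each case without overlap.

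The other genes of the pathway are given by list, and their CHX counts stand beside 40.9% of all genes tested called higher and 38.3% called lower. Differences between lists were not tested. Of 12 genes for methionine and SAM supply, 2 rose and 7 fell (1 and 10 on library size alone), and the median log2 fold was −0.46. The SAM synthetase gene MAT3 fell by 2.51 ± 0.12 on the log2 scale (limma adjusted p = 5.7e-09). In the salvage cycle that recovers methionine, ARD3 rose by 4.73 ± 0.62 (limma adjusted p = 2.9e-05) and ARD1 fell by 1.34 ± 0.07 (limma adjusted p = 8.2e-09). Of 5 ACC oxidase genes, whose products make ethylene from ACC, 0 rose and 4 fell (0 and 5 on library size alone). ACO5 fell by 1.83 ± 0.21 on the log2 scale (limma adjusted p = 9e-06) and ACO3 fell by 1.54 ± 0.19 (limma adjusted p = 2.1e-05). ACO4 had 45378, 51308 and 49690 normalised reads in mock, whereas with CHX it had 53214, 46453 and 51366, and its estimate of 0.04 (limma adjusted p = 0.77) turned to −0.71 on library size alone. The ACC synthase and ACC oxidase lists thus had medians of opposite sign, 5.87 and −1.54.

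Of the 3 ACS-like genes, ACS10 and ACS12 are known to encode aminotransferases and not ACC synthases. ACS10 fell by 1.28 ± 0.17 on the log2 scale (limma adjusted p = 2.7e-05), ACS12 did not pass, and ACS1 was below the minimum value for testing. On library size alone both tested genes were lower.

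Of 14 genes that act on ACS proteins or on the kinase route to them, 9 rose and 3 fell with CHX, but 5 rose and 7 fell on library size alone. WRKY33 rose by 7.06 ± 0.29 on the log2 scale (limma adjusted p = 2.3e-09), from 3216, 2142 and 4643 normalised reads in mock to 391128, 437248 and 447665 with CHX. MPK3, a MAP kinase that phosphorylates ACS2 and ACS6, rose by 4.74 ± 0.12 (limma adjusted p = 5.4e-11), and MKK9, a kinase upstream of it, by 4.54 ± 0.20 (limma adjusted p = 3.3e-09). These 3 remained higher on library size alone. With the peptide under CHX, 1 of the 14 was called, beside 13.5% of all genes tested. That gene, EOL2 of the ETO1 family, fell by 0.45 ± 0.09 (limma adjusted p = 0.0096).

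Of 16 genes for ethylene receptors and signalling, 2 rose and 8 fell with CHX (1 and 14 on library size alone), and the median log2 fold was −0.24. The receptor gene ETR1 rose by 1.42 ± 0.07 (limma adjusted p = 9.4e-09). The receptor gene ERS1 fell by 1.32 ± 0.12 (limma adjusted p = 9.8e-07), and EIN2, which carries the signal from the receptors to the nucleus, fell by 1.28 ± 0.06 (limma adjusted p = 6.9e-09). With the peptide under CHX, 4 of the 16 were called, beside 13.5% of all genes tested (5.89% higher), and all were higher: EBF2 by 0.61, CTR1 by 0.44, EIN4 by 0.38 and ETP1 by 0.31 on the log2 scale, with limma adjusted p from 0.014 to 0.037. EIN4 was called in 19 of 21 alternatives, CTR1 in 16, EBF2 in 15 and ETP1 in 11. On library size alone 3 were higher.

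Of 15 ethylene response genes, 12 rose and 1 fell with CHX (11 and 1 on library size alone), and the median log2 fold was 3.23. The ethylene response factor genes ERF6, ERF1 and ERF2 rose by 6.80 ± 0.22, 6.40 ± 0.60 and 5.66 ± 0.22 (limma adjusted p of 3.7e-10, 1.7e-06 and 1.3e-09). With the peptide under CHX, 3 of the 15 were called, beside 13.5% of all genes tested (7.63% lower), and all were lower. HLS1, needed for the apical hook, fell by 2.23 ± 0.16 on the log2 scale (limma adjusted p = 2.2e-05). ERF4 had −0.50 and EDF4 −0.47. ERF4 was called in 11 of 21 alternatives. In the other 2 lists, MTN2 of the methionine salvage cycle was higher by 0.26 (limma adjusted p = 0.017) and ACS12 by 0.30 (limma adjusted p = 0.042), the latter in 9 of 21 alternatives. The values of the 5 ACC oxidase genes in that comparison ranged from −0.36 to 0.35. With EPFL6 alone, limma called 0 of the 64 genes tested in the 6 lists, 1 had an unadjusted p under 0.05, and edgeR and DESeq2 called 0.

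**Figure D4:**
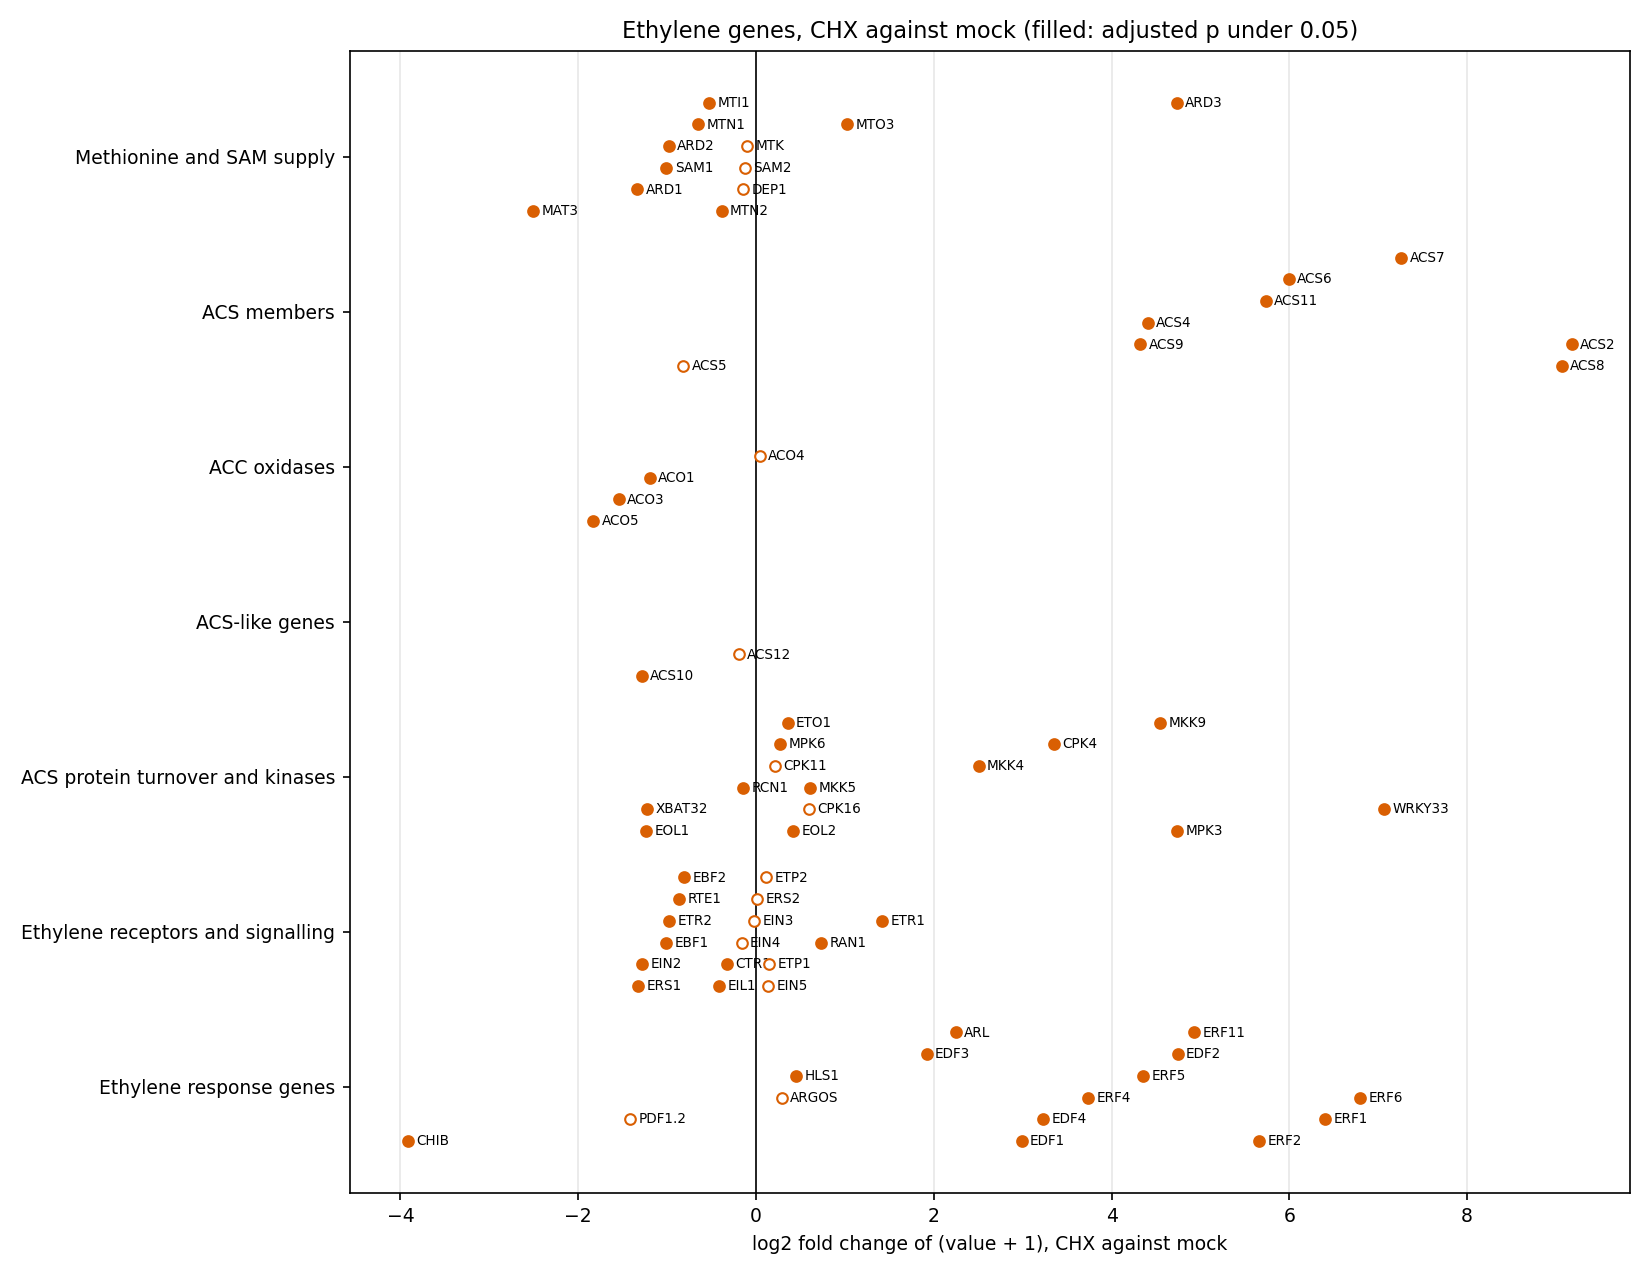
Log2 fold change of (value + 1), CHX against mock, of the ACS genes and the 6 pathway lists, 1 dot per gene reported; filled dots have an adjusted p under 0.05. The ACS genes other than ACS5 lie at 4.32 or more, whereas the ACC oxidases shown lie between −1.83 and 0.04. On library size alone the median of all genes is −0.74 and ACO4 lies at −0.71.

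Each ACS gene was also set beside the genes with the closest profile, by the root mean square difference of log2(value + 1) over the 12 libraries after each gene was centred on its own mean. The closest to ACS2 were ZAT11, at 0.18, and AT5G57510, at 0.19. ACS6 was closest to AT5G14730 and AT4G36500, both at 0.15, and ACS11 to AT1G26970, at 0.23, and TCH3, at 0.25. For ACS7 they were WRKY53, at 0.33, and AT2G24600, at 0.34, and for ACS8 AT1G06135, at 0.36, and AT5G24040, at 0.39. Among the low genes, ACS4 was closest to AT2G47550, at 0.49, and AT1G20823, at 0.51, and ACS9 to AT5G53050, at 0.40, and AT1G32890, at 0.41. ACS5 was closest to AT3G44790, at 0.29, and GH9B6, at 0.36. Within the family, ACS8 and ACS2 differed by 0.54 and ACS6 and ACS11 by 0.45. Genes with CHX changes of like size come out close by this measure. The log2 fold changes with CHX were 9.06 for ACS8 and 9.18 for ACS2, and 5.99 for ACS6 and 5.74 for ACS11. Many other genes were closer: ACS8 ranked 92 from ACS2, and ACS2 ranked 19 from ACS8. ACS11 ranked 191 from ACS6, and ACS6 ranked 181 from ACS11, each among 23224 genes.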

How the data were processed

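Poly(A)-selected RNA was sequenced in 12 libraries. The build TAIR10 and the programs DESeq2 1.26.0, featureCounts 2.0.0 and STAR 2.7.6a are named, per the submitters' processing notes; the counting mode and strand setting are not given in the sources used here. The deposited signal values are reads divided by 1 size factor per library, which was read from the values: after multiplication by the factor, 100% lay within 1e-06 of a whole number. Depth was 40.2 to 106.6 M reads per library, so counting error is small except for ACS4, ACS5 and ACS9 and, without CHX, ACS8. Replicates were separate pools of seedlings.

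The 23225 genes that reached a value of 10 in 3 or more libraries were fitted with limma 3.58.1 in R 4.3.3 on log2(value + 1), with trend and robust moderation, all 12 libraries and 4 group means. A fold change on that scale understates the change of low genes. Adjusted p is Benjamini-Hochberg over all genes tested, two-sided. Alternatives were pseudocounts of 0.5 and 8, no filter, a filter of 50, library size alone, edgeR 4.0.16 with TMM and DESeq2 1.42.0 on the recovered reads, only the compared groups, a replicate block, and each library left out. The members and lists were chosen with earlier results of these data known. Named genes are all 8 members, the 3 largest CHX changes called per list, list genes called in the EPFL6 comparisons (at most 4 per list), and the 2 closest profiles per member. A list gene that this rule names is not reported here. ACO4 was named after its values were seen, as the ACC oxidase gene not called. The 5 shoot markers are named apart from this rule. Coordinates and sequences are from RefSeq TAIR10.1, Python 3.11.15.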

Additional observations from a re-analysis of the deposited data

Results flagged for a closer look

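Among the ACS genes and the 6 pathway lists, limma called an interaction of EPFL6 and CHX for HLS1 alone, an ethylene response gene. It stood at 394, 515 and 588 normalised reads in mock, 393, 378 and 452 with EPFL6, 729, 718 and 584 with CHX and 124, 157 and 151 with CHX plus EPFL6. The interaction was −1.95 ± 0.22 on the log2 scale (limma adjusted p = 0.0023), and it was called in 20 of 20 alternatives, from −2.08 to −1.79. Groups of 3 libraries are too small for a test of single outlying libraries.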

How the results depend on the processing

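The count of ACS genes called, in either direction, ranged from 6 to 8 for CHX against mock and for CHX plus EPFL6 against EPFL6 over 22 settings each. Where the count reached 8, it included ACS5 as lower. For EPFL6 against mock the count was 0 in all 22. For CHX plus EPFL6 against CHX it was 1, and 2 with a pseudocount of 8 and with edgeR, which add ACS9. Leaving out each library in turn gave 0 to 1. For the interaction it was 0, and 1 with DESeq2, with 0 to 1 when each library was left out, and the added gene was ACS7. The replicate block gave 1 gene for CHX plus EPFL6 against CHX, with ACS8 at −1.30 (limma adjusted p = 0.021), and 0 for the interaction. Deviations from the group means were correlated over 0.1 in 8 of 18 same-numbered pairs of libraries, with r from −0.22 to 0.42. Between different numbers r ran from −0.48 to 0.35. The highest same-numbered r was that of mock replicate 3 and EPFL6 replicate 3. Whether replicate numbers pair the libraries was not tested, and the main fit has no replicate block. Among 1406 values of single genes under the alternatives, 1343 kept their side of the threshold with any change of sign within 1 SE, 52 lost the call, 7 gained it and 3 changed sign by more than that without a call. ACO4 with CHX against mock reversed, from 0.04 to −0.71 on library size alone, where the median of all genes was −0.74, and the cause was not tested. The filter of 50 leaves out ACS5 and ACS9. The list counts were put through the same alternatives after the data were seen. ACS5, ACS4 and ACS9 are limited by depth, with at most 35 reads per library without CHX. So is ACS8 where libraries without CHX are used, with 25 to 44 reads per mock library and 19 to 30 per EPFL6 library.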
